A study of Homo sapiens with 9 samples.

Results

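The 44 genes described here belong to NF-kB signalling and its inflammatory output: the subunits of the transcription factor, its inhibitors and feedback genes, induced survival and adhesion genes, chemokines, interleukins and TNF-family ligands, cytokine and innate receptors, and the adaptor and kinases below those receptors. They were listed by symbol, with earlier results of these data known but without a threshold on any measured value, and all 44 were found among the 56809 genes of the deposited table. Their mRNA was measured by poly(A) RNA-seq in MDA-MB-468, an established cell line from a human breast adenocarcinoma. The cells had been infected with 1 of 3 constructs built on pSicoR, a lentiviral vector for hairpin RNAs: the empty vector (control), shLMO2-1 or shLMO2-2. The hairpins are directed against LMO2, a LIM-domain adaptor protein of transcription complexes. Each group had 3 libraries, numbered 1 to 3. The control carried no hairpin, so the response to an unrelated hairpin was not measured. The labels do not say whether the libraries of a group came from separate infections, so the p-values below measure only the spread between these libraries.

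NF-kB is a family of dimeric transcription factors made of RELA, RELB, REL and the products of NFKB1 and NFKB2. In resting cells the dimers are held in the cytoplasm by inhibitors such as IkB-alpha, the product of NFKBIA. Ligands of TNF receptors, the interleukin-1 receptor and Toll-like receptors release them through adaptor and kinase cascades, and the dimers then switch on chemokines, cytokines, survival genes and their own inhibitors. In breast carcinoma of the basal kind, the pathway is known for tonic activity and for secretion of chemokines and IL-6 by the tumour cells themselves.

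The letters through which NF-kB dimers recognise DNA could be read in the RefSeq promoter table for GRCh38.p14, which gives windows of 300 bases, from 250 bases before to 50 bases after each annotated start. The search used the 10-letter kappa-B consensus on both strands and counted overlapping matches. It was found in 2075 of 35116 windows, or 5.91%. Among the windows of members it was found in 23 of 55, or 41.8%. Some genes have several windows: of the 38 members with a window, 18 held it in at least 1, and 12 of these had more than 1 match in a window. Matches that overlap, or lie on both strands at the same position, were counted separately. More than 1 match therefore need not mean separate stretches: those of CXCL1 begin 79 and 78 bases before its start. A match is a run of letters and was not tested as a binding site. CXCL1, CXCL2, CXCL3 and CXCL5, a cluster of neutrophil-attracting chemokines on chromosome 4, show how alike these promoters can be although the genes differed in level. The 30 bases around their matches follow, 5′ to 3′ on the strand of the gene, with the overlapping kappa-B matches in capitals.
CXCL1: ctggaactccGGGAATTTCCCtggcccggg
CXCL2: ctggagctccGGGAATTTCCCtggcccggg
CXCL3: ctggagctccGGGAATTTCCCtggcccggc
CXCL5: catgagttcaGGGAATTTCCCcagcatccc

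The first 3 of these stretches are nearly the same, with CXCL1 at chr4:73869304-73869333 on the plus strand, CXCL2 at chr4:74099254-74099283 on the minus strand and CXCL3 at chr4:74038749-74038778 on the minus strand. The CXCL5 stretch, at chr4:73998749-73998778 on the minus strand, has the same 11 capitals in other flanks. The genes were not alike in level: in CPM, the count scaled to a common library size, CXCL1 had a mean of 2.82, CXCL3 of 0.623 and CXCL2 of 0.293, and CXCL5 was at 0 in all 9 libraries. CPM does not allow for gene length. Divided by exon length and scaled to the same total in every library, the means were 8.31 for CXCL1, 1.07 for CXCL3 and 0.749 for CXCL2. In the control, CXCL2 (1.37) then lay above CXCL3 (1.01).

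Of the 7 members that passed the test described below, NFKB2, CCL20 and IL6 held the consensus in a promoter window, and CD14, IRAK1, TLR3 and TNFRSF21 did not. The stretches of the first group are given for their place in the results, again on the strand of the gene and with matches in capitals. The IL6 stretch is chr7:22727000-22727146, the CCL20 stretch chr2:227813642-227813788 and the NFKB2 stretch chr10:102395505-102395693, all on the plus strand.
IL6: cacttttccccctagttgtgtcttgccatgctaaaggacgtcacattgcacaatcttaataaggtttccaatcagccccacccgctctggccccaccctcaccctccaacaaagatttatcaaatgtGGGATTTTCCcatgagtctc
CCL20: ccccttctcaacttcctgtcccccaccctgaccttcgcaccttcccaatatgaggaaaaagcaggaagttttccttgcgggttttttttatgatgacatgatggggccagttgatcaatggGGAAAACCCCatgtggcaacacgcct
NFKB2: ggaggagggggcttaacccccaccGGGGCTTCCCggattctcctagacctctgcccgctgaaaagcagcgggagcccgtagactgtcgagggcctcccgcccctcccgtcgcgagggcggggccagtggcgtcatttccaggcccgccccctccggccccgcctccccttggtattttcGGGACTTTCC

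The IL6 match begins 73 bases and the CCL20 match 79 bases before the annotated start. NFKB2 has 3 windows, and the window shown has matches that begin 176 and 21 bases before its start; another NFKB2 window holds 3 further match positions. The absence of the letters in the other promoters says only that they are not in those windows.

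Library totals ran from 15494486 to 23069456 estimated counts. The 6 epithelial markers were all expressed, with sums of 7890 to 8540 CPM in the control, 7980 to 9140 in shLMO2-1 and 9240 to 10400 in shLMO2-2. Of the 10 leukocyte markers, 6 were at 0 in all libraries, among them CD3E, MS4A1, NKG7, LYZ and FCGR3A. The sums of the list were 9.36 to 11.8, 9.93 to 12.8 and 6.9 to 9.43 CPM in the same order, and CSF1R had the highest mean (5.12 CPM). The sums of 6 fibroblast markers were 11.3 to 15.9, 13 to 17.8 and 14.6 to 16.8 CPM, and those of 5 endothelial markers 7.22 to 14.4, 13.2 to 19.2 and 8.28 to 11.2 CPM. LMO2 itself was near the limit of detection, with 4, 35 and 19 counts in control libraries 1 to 3, 2, 1 and 6 counts in shLMO2-1, and 1, 4 and 3 counts in shLMO2-2. The library labelled control 1 therefore lay within the range of the shLMO2-1 libraries for the targeted gene (0.241 CPM against 0.0581 to 0.387), so its label is not borne out by the targeted gene, as far as 4 counts can show. The same library stood apart on the first principal component of all tested genes, at -42.6 against -18.2 and -20.6 for the other controls and -0.0825 to 28.9 for the hairpin libraries. The values without it are given beside members for which it changed a call of either hairpin against the control or moved that log2 fold change by over 0.25. The fitted log2 fold change of LMO2 was -2.44 in shLMO2-1 (SE 0.81, adjusted p = 0.0907) and -3.02 in shLMO2-2 (SE 0.82, adjusted p = 0.0441, edgeR quasi-likelihood test).

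Expression of the pathway was uneven. Of the 44 members, 31 had a mean of at least 1 CPM over the 9 libraries and 13 did not. The core of the pathway was expressed: all 5 NF-kB subunits, all 5 inhibitors and feedback genes, and 4 of 5 cytokine receptors were among the 31. The secreted products were mostly low or silent: 5 of 10 chemokines and 5 of 8 interleukins and TNF-family ligands fell below 1 CPM. Divided by exon length and scaled to the same total in every library, the most abundant member was IRAK1, a kinase that binds MYD88 below the interleukin-1 and Toll-like receptors, at 807 ± 65.2 length-scaled units (SD over 9 libraries). Next came TNFAIP2, a TNF-induced gene, at 176 ± 34.7, and TNIP1, a ubiquitin-binding partner of the inhibitor A20, at 165 ± 11.6, whose ranges overlapped. RELA, the main activating subunit, had 142 ± 11.3 units. TNFRSF21 (death receptor 6), RELB, the membrane-bound chemokine CXCL16, NFKB2, the adhesion molecule ICAM1 and NFKBIA followed between 115 and 101 units, and TNFRSF1A, the main TNF receptor, had 82.0. From TNFAIP2 to TNFRSF1A the range over the libraries of each gene overlapped that of the next. The order is that of the means, and neighbours in it were not compared within libraries. MYD88 lay below them, at 45.9 units (42.4 to 48.9), within the wide range of CXCL8, or interleukin-8, at 40.5 units (21.3 to 64.9). IL6 stood at 1.71 and TNF at 4.49 units.

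**Figure D1:**
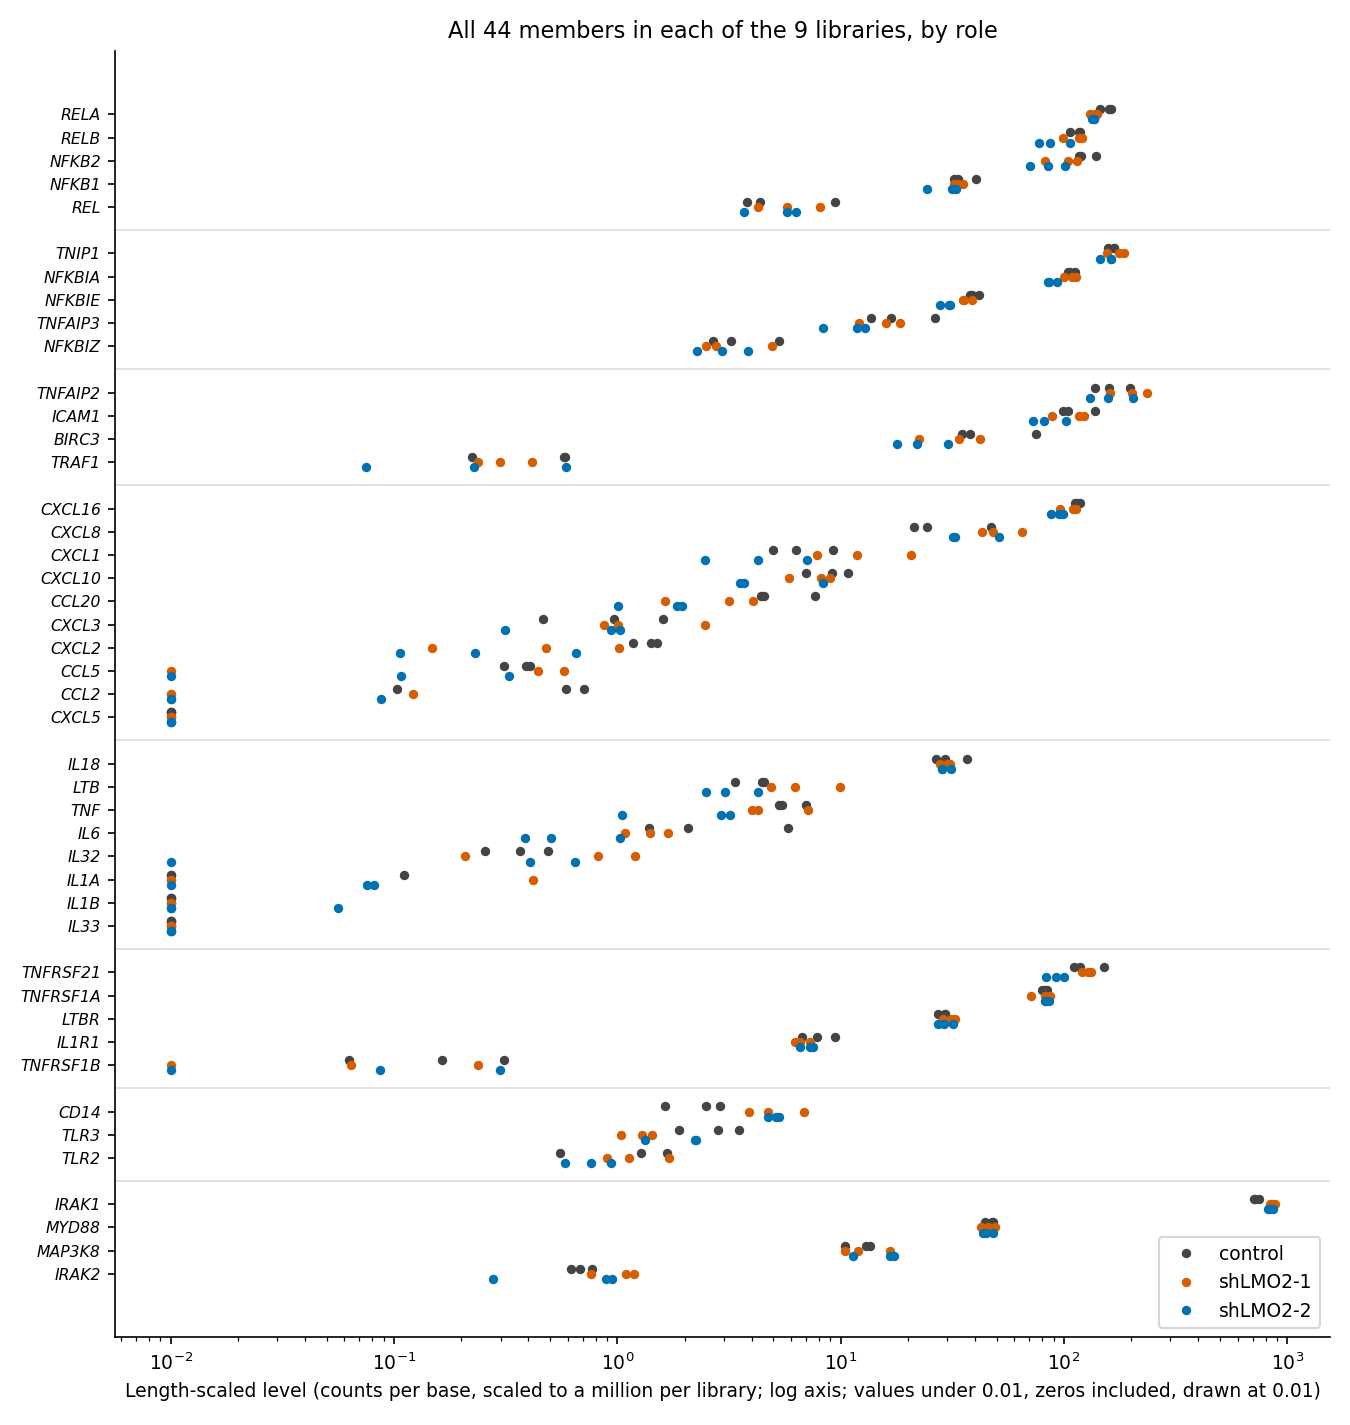
Length-scaled level (counts per base, scaled to the same total in every library; log axis) of all 44 members, with 1 point for each of the 9 libraries, coloured by group and ordered by level within each role; values under 0.01 are drawn at 0.01. IRAK1 stands apart at 710 to 878 units, and chemokines and interleukins reach down to members at 0.

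The 13 members under 1 CPM were not alike. CXCL5, a neutrophil chemokine, and IL33, an alarmin, had no count in any library, which allows up to 0.13 to 0.194 CPM (3 counts, counting error only). IL1B had 1 count over all libraries, IL1A 7, CCL2 15, CCL5 19 and TNFRSF1B, the second TNF receptor, 24. These 5 genes include the inflammatory initiators IL1A and IL1B, and CCL2 and CCL5, chemokines for monocytes and T cells. TNF and the T cell chemokine CXCL10 were not among the 13. CXCL2, with 49 counts in all, is the last of the 8 members too low to test. Its counts were 9, 9 and 11 in the control, 7, 1 and 3 in shLMO2-1, and 6, 2 and 1 in shLMO2-2, so each hairpin library lay below every control library in counts; it got no test. The other 5 genes under 1 CPM passed the low-count filter: the signalling adaptor TRAF1 (0.607 CPM), CXCL3 (0.623), IL6 (0.919), the cytokine IL32 (0.414) and the kinase IRAK2 (0.734).

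Each hairpin was compared with the control, the mean of both hairpins with the control, and shLMO2-2 with shLMO2-1, by edgeR's quasi-likelihood test on all 14709 genes that passed the filter, with Benjamini-Hochberg adjustment over all of them. A gene passed at an adjusted p under 0.05. The comparisons with the control share its 3 libraries. Of the 36 tested members, 3 passed in shLMO2-1, 2 higher and 1 lower, or 8.33% of the members beside 8.42% of all genes tested (4.54% higher and 3.88% lower). In shLMO2-2, 6 passed, 2 higher and 4 lower, or 16.7% beside 8.97% of all genes (4.94% higher and 4.04% lower). In the mean of both hairpins 5 passed, CD14 and IRAK1 higher and NFKB2, CCL20 and IL6 lower, or 13.9% beside 12.4% (6.47% higher and 5.93% lower). The members' share in shLMO2-1 and in the mean was thus close to the background. No member passed between the hairpins, where 0.768% of all genes did; 9 of the 36 (25%, beside 10.6% of all genes) had an unadjusted p under 0.05, DESeq2 called 3 (8.33%, beside 2.15% of all genes) and limma-voom 0. Against the control, 6 members had an unadjusted p under 0.05 in shLMO2-1 (16.7%, beside 23.9% of all genes). In shLMO2-2 it was 14 (38.9%, beside 24.9%) and in the mean 13 (36.1%, beside 28%). In all, 7 members passed in at least 1 comparison and 29 in none. In this fit IRAK1 and CD14 passed as higher with both hairpins, and no member passed as lower with both. NFKB2, CCL20 and IL6, which passed as lower in the mean, had negative log2 fold changes in both. This depends on the fit: with the libraries' numbers 1 to 3 added as a block, NFKB2 and BIRC3 passed as lower with both hairpins. CXCL8 then passed as higher with both.

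The median log2 fold change of the tested members was 0.02 in shLMO2-1, -0.20 in shLMO2-2 and -0.25 between shLMO2-2 and shLMO2-1. Over all genes tested it was 0.00 in each of these comparisons to 2 decimals. In shLMO2-2, 24 of the 36 had a negative value, and 27 did so against shLMO2-1, beside 50% and 50.2% of all genes. All 3 shLMO2-2 libraries lay below all 3 control libraries for 10 members, where 14.5% of all genes did, and above them for 4, where 15.3% did. Against shLMO2-1 they lay below for 8 members (9.12% of all genes) and above for 0 (8.97% of all genes). The shLMO2-1 libraries lay below all controls for 3 of the 36 members (14.3% of all genes) and above for 5 (14.0%). The libraries of both hairpins lay below all controls for 2 (8.59%) and above for 2 (8.12%). By role, the median in shLMO2-2 was -0.44 over 4 survival, adhesion and other induced genes, -0.43 over 3 innate receptors, -0.38 over 6 chemokines, -0.26 over 5 interleukins and TNF-family ligands, -0.20 over 5 inhibitors and feedback genes, -0.17 over 5 NF-kB subunits, 0.02 over 4 cytokine receptors and 0.21 over 4 adaptor and kinase genes. These medians rest on few genes each. For the innate receptors it is the value of TLR3, between TLR2 at -0.51 and CD14 at 1.21. Without the library labelled control 1, TLR3 was at -0.66, TLR2 at -0.22 and CD14 at 1.34, so the median was that of TLR2. The number of members that passed depends on single libraries, and so does that of all genes. With the library labelled control 1 left out, 5 members passed in each comparison with the control, beside 9.33%, 7.55% and 10.6% of all genes in shLMO2-1, shLMO2-2 and the mean. They were not all the same members as with all libraries. In the mean, CD14 and IRAK1 still passed, but NFKB2 (adjusted p = 0.1025), CCL20 (0.121) and IL6 (0.263) did not. RELA (-0.21, adjusted p = 0.0261), CXCL8 (1.01, 0.00883) and TLR3 (-0.98, 0.0182) passed there instead. In shLMO2-1 the number of members was 1 without control 2, control 3, shLMO2-1 library 1 or 3, or shLMO2-2 library 1 or 2, where 3.63% to 6.84% of all genes passed. In shLMO2-2 it was 2 without control 3 (4.26% of all genes), 3 without shLMO2-1 library 2 (5.95%) or shLMO2-2 library 1 (4.94%), and 1 without shLMO2-2 library 2 (3.30%) or 3 (3.43%). In the mean it was 3 without shLMO2-1 library 2 (8.60%) and 2 without control 2, control 3, shLMO2-1 library 3, or shLMO2-2 library 2 or 3 (6.31% to 9.81%).

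**Figure D2:**
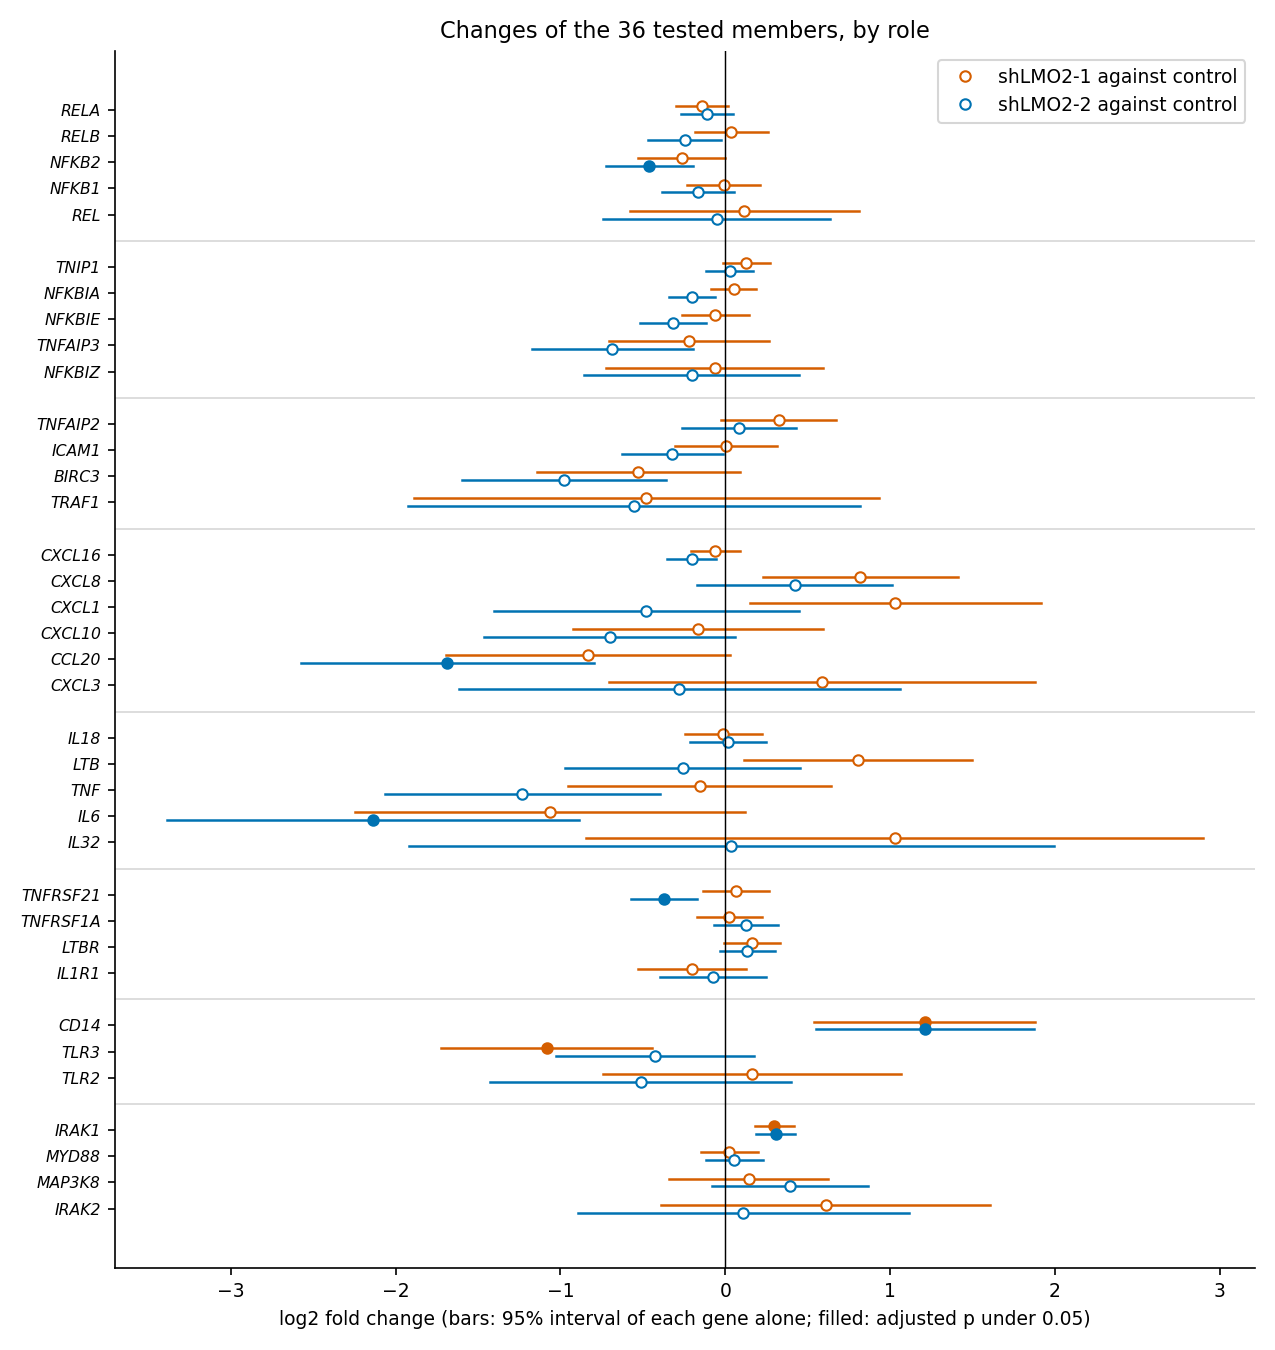
Fitted log2 fold change of the 36 tested members in each hairpin against the same control libraries, by role; bars are 95% intervals of each gene alone and filled points have an adjusted p under 0.05. IRAK1 and CD14 lie to the right of 0 in both hairpins, and NFKB2, CCL20, IL6 and TNFRSF21 are filled to the left of 0 in shLMO2-2.

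Among the NF-kB subunits, NFKB2, whose p100 product is processed to p52 in the non-canonical branch, fell in shLMO2-2. Its TMM-scaled CPM was 154, 137 and 137 in the control, 132, 123 and 101 in shLMO2-1, and 121, 102 and 88.2 in shLMO2-2. Every hairpin library lay below every control library. In shLMO2-2 this gave a log2 fold change of -0.46 (SE 0.12, adjusted p = 0.0390), or 1.38-fold lower, and -0.26 in shLMO2-1 (SE 0.12, adjusted p = 0.211). The direction held without any 1 library, but the adjusted p in shLMO2-2 went over the threshold, to between 0.0558 and 0.134, without any 1 of the control libraries, without shLMO2-1 library 2, and without shLMO2-2 library 2 or 3. The value in shLMO2-2 was -0.41 without the library labelled control 1 (adjusted p = 0.0767). With the libraries' numbers as a block in the same test, NFKB2 passed with both hairpins (-0.27 in shLMO2-1, adjusted p = 0.0223). The gene lies at chr10:102394110-102402529 on the plus strand (GENCODE 29, GRCh38). The other 4 subunits did not pass. RELA had 194 to 232 CPM in the control, 193 to 201 in shLMO2-1 and 195 to 209 in shLMO2-2, overlapping ranges, with log2 fold changes of -0.14 (adjusted p = 0.253) and -0.11 (adjusted p = 0.371). Without the library labelled control 1 the former was -0.22 and passed (adjusted p = 0.0357). RELB, the partner of p52, had values of 0.04 and -0.25, NFKB1 of -0.01 and -0.17, and REL of 0.11 and -0.05. REL had 30.6 CPM in the library labelled control 1 and 13.2 and 14.7 in the other controls, and without the former its values were 0.59 (adjusted p = 0.159) and 0.42 (adjusted p = 0.332). For REL, 45.9% of the 31-base words of its exons also occur in other annotated genes, so its estimate depends on how shared reads were assigned.

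None of the 5 inhibitors and feedback genes passed in any comparison. TNIP1 had 234.6 to 254.6 CPM in the control and 235 to 281 over the hairpin libraries, with log2 fold changes of 0.13 (adjusted p = 0.259) and 0.03 (adjusted p = 0.843). In shLMO2-2, NFKBIA was at -0.20 (adjusted p = 0.0699), NFKBIE, another IkB protein, at -0.32 (adjusted p = 0.0566), and TNFAIP3, which encodes the ubiquitin-editing inhibitor A20, at -0.69 (adjusted p = 0.0813). These 3 genes are named after their values were seen, because all 3 shLMO2-2 libraries lay below all controls. NFKBIA had 65.4, 66.2 and 63.4 CPM in the control and 58.8, 54.3 and 56.3 in shLMO2-2. NFKBIZ, an atypical nuclear IkB protein, had overlapping values in all groups, with log2 fold changes of -0.06 and -0.20. When the library labelled control 1 was left out, TNFAIP3 was at 0.05 in shLMO2-1 and -0.42 in shLMO2-2 (adjusted p = 0.200), NFKBIZ at 0.22 and 0.08, and NFKBIE at -0.36 in shLMO2-2, which passed (adjusted p = 0.0458).

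Among the survival, adhesion and other induced genes, none of the 4 passed. BIRC3 encodes cIAP2, an inhibitor of apoptosis and a classical NF-kB target. It had 139, 74.4 and 67.8 CPM in the control, 81.1, 67.0 and 46.3 in shLMO2-1, and 60.7, 44.2 and 37.5 in shLMO2-2. All shLMO2-2 libraries lay below all controls, while the library labelled control 1 was far above the other controls. On the log2 scale the change was -0.98 in shLMO2-2 (SE 0.28, adjusted p = 0.0550) and -0.53 in shLMO2-1 (SE 0.28, adjusted p = 0.279). Without the library labelled control 1 the value in shLMO2-1 was -0.14 (adjusted p = 0.745) and that in shLMO2-2 -0.59 (adjusted p = 0.123), whereas the latter passed without control 2 (adjusted p = 0.0480) and without shLMO2-1 library 3 (adjusted p = 0.0467). TNFAIP2 had 179 to 244 CPM in the control, 220 to 304 in shLMO2-1 and 184 to 273 in shLMO2-2, and log2 fold changes of 0.32 (adjusted p = 0.240) and 0.08 (adjusted p = 0.786). ICAM1 was at 0.00 (adjusted p = 0.993) and -0.32 (adjusted p = 0.184), from 94.3 to 126 CPM in the control and 75.7 to 100.5 in shLMO2-2. TRAF1 was under 1 CPM on average and its groups overlapped.

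Among the chemokines, CCL20 fell in shLMO2-2. CCL20 attracts dendritic cells and lymphocytes that carry CCR6. It had 3.01, 1.89 and 1.80 CPM in the control, 0.674, 1.70 and 1.38 in shLMO2-1, and 0.826, 0.788 and 0.449 in shLMO2-2, from counts of 52, 37 and 34, then 12, 29 and 21, then 19, 17 and 10. Every hairpin library lay below every control library. In log2 terms the fitted difference was -1.69 in shLMO2-2 (SE 0.40, adjusted p = 0.0279) and -0.83 in shLMO2-1 (SE 0.39, adjusted p = 0.222). Without the library labelled control 1 the value was -0.57 in shLMO2-1 and -1.42 in shLMO2-2 (adjusted p = 0.0787), and in shLMO2-2 the adjusted p lay between 0.0528 and 0.101 without control 3 or without any 1 of the shLMO2-2 libraries. CCL20 lies at chr2:227805739-227817564 on the plus strand.

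The CXC chemokines did not pass in any comparison. CXCL8 had 26.4, 14.4 and 12.5 CPM in the control, 38.0, 28.8 and 26.9 in shLMO2-1, and 31, 19.7 and 20.3 in shLMO2-2. The shLMO2-1 libraries all lay above the controls, and the shLMO2-2 libraries overlapped them. CXCL8 had a log2 fold change of 0.82 in shLMO2-1 (SE 0.27, adjusted p = 0.0873) and 0.42 in shLMO2-2 (SE 0.27, adjusted p = 0.366). Without the library labelled control 1, the highest control, these were 1.21 (adjusted p = 0.00655) and 0.81 (adjusted p = 0.0426), and both passed; DESeq2 called the first with all libraries (adjusted p = 0.0204). CXCL1 had 2.95, 1.69 and 2.11 CPM in the control, 6.91, 4.04 and 2.77 in shLMO2-1, and 2.43, 1.48 and 0.898 in shLMO2-2. Each shLMO2-2 library lay below each shLMO2-1 library, and both groups overlapped the control. Against the control, CXCL1 was at 1.03 in shLMO2-1 (SE 0.40, adjusted p = 0.142) and at -0.48 in shLMO2-2 (SE 0.42, adjusted p = 0.527) on the log2 scale, and shLMO2-2 against shLMO2-1 gave -1.51 (SE 0.41, adjusted p = 0.154). CXCL1 shares 14.4% of its 31-base words with other genes, mostly CXCL2, so low counts could be split between them. CXCL3, which averaged under 1 CPM, was at 0.59 in shLMO2-1 and -0.28 in shLMO2-2, and at 1.01 and 0.14 without the library labelled control 1. CXCL16 had 79.2 to 85.9 CPM in the control and 68.2 to 73.9 in shLMO2-2 (log2 fold change -0.20, adjusted p = 0.0877), and CXCL10, a T cell chemokine, 2.11 to 3.13 and 1.11 to 2.61 CPM (-0.70, adjusted p = 0.240).

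IL6 was the interleukin that fell in shLMO2-2. It encodes the cytokine that signals through gp130 to STAT3. The TMM-scaled CPM was 2.95, 1.13 and 0.739 in the control, 0.899, 0.586 and 0.791 in shLMO2-1, and 0.565, 0.278 and 0.224 in shLMO2-2. The counts behind these were 51, 22 and 14, then 16, 10 and 12, then 13, 6 and 5. The shLMO2-2 libraries lay below every other library, and the library labelled control 1 lay far above the rest. The log2 fold change was -2.14 in shLMO2-2 (SE 0.57, adjusted p = 0.0406) and -1.07 in shLMO2-1 (SE 0.54, adjusted p = 0.255). Without the library labelled control 1 the value was -0.30 in shLMO2-1 (adjusted p = 0.761) and -1.38 in shLMO2-2 (adjusted p = 0.141), where it did not pass without any 1 of the hairpin libraries either (adjusted p of 0.0547 to 0.142) or under limma-voom (adjusted p = 0.0650). IL6 lies at chr7:22725884-22732002 on the plus strand; it overlaps STEAP1B and an antisense RNA on the other strand, and shares 17.4% of its 31-base words with the latter.

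TNF, the founding ligand of its family, did not pass. It had 2.26, 3.07 and 2.27 CPM in the control, 3.09, 1.87 and 1.84 in shLMO2-1, and 1.30, 1.44 and 0.494 in shLMO2-2. The shLMO2-2 libraries lay below all others. TNF had a log2 fold change of -1.23 in shLMO2-2 (SE 0.38, adjusted p = 0.0692; DESeq2 adjusted p = 0.0283) and -0.16 in shLMO2-1 (SE 0.36, adjusted p = 0.844). LTB encodes lymphotoxin beta, a ligand of the non-canonical branch. Its CPM was 1.27, 1.79 and 1.80 in the control, 3.93, 2.52 and 2.04 in shLMO2-1, and 1.74, 1.25 and 1.08 in shLMO2-2. The shLMO2-1 libraries lay above all others, at a log2 fold change of 0.80 (SE 0.31, adjusted p = 0.144), and shLMO2-2 was at -0.26 (SE 0.32, adjusted p = 0.671). IL18, of the interleukin-1 family, had overlapping groups, with 18.4 to 23.9 CPM over the 9 libraries and log2 fold changes of -0.01 (95% interval -0.25 to 0.22) and 0.02 (-0.21 to 0.25).

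**Figure D3:**
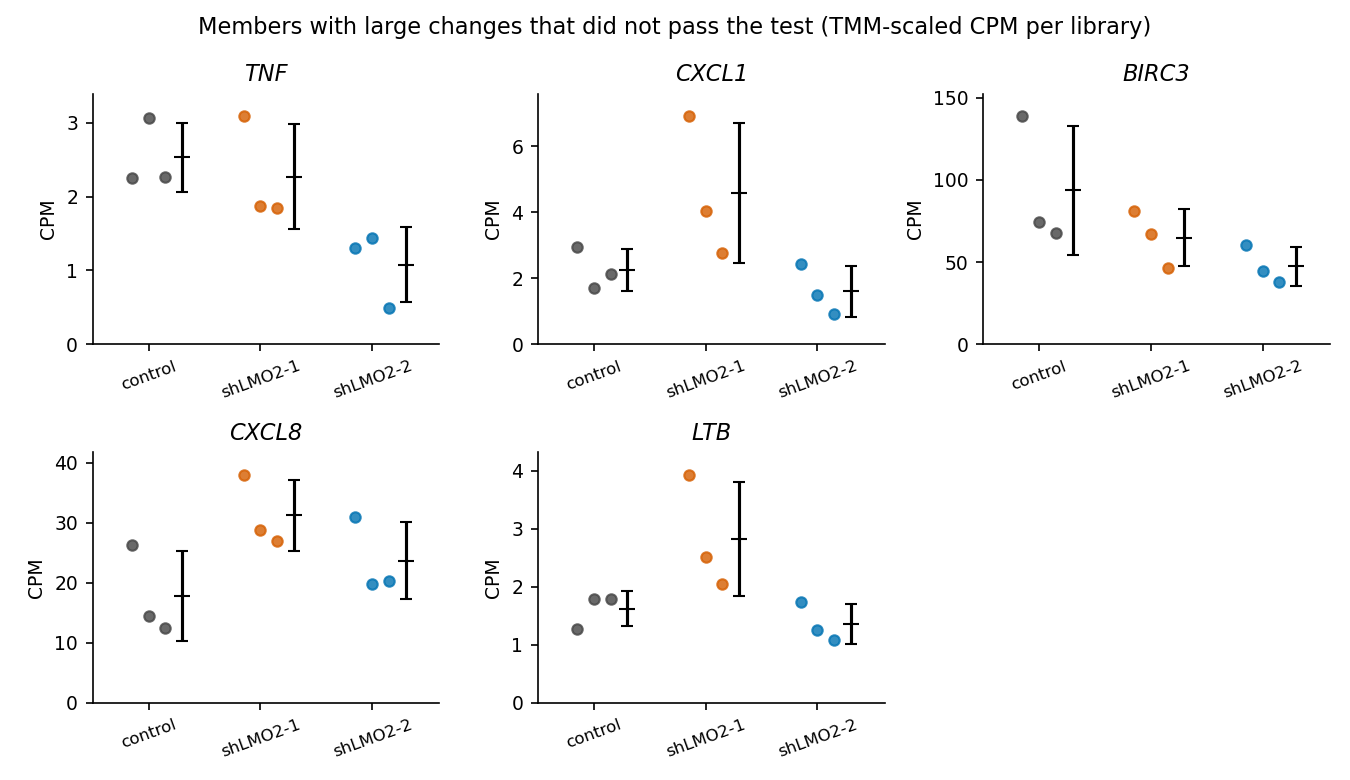
TMM-scaled CPM of the 5 expressed members with the largest fold changes among those that did not pass, with 1 point a library and, beside each group, its mean and SD (n = 3). The shLMO2-2 points lie lowest for TNF, and the library numbered 1 is the highest of each group for BIRC3, CXCL1 and CXCL8.

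Of the cytokine receptors, TNFRSF21 fell in shLMO2-2 and did not pass in shLMO2-1. It encodes death receptor 6, which can signal to NF-kB and JNK. It had 133, 104 and 109 CPM in the control, 122, 122 and 118 in shLMO2-1, and 88.4, 96.0 and 83.7 in shLMO2-2. The shLMO2-2 libraries were the lowest, and the shLMO2-1 libraries lay within the control range. The log2 fold change was -0.37 in shLMO2-2 (SE 0.09, adjusted p = 0.0318) and 0.06 in shLMO2-1 (SE 0.09, adjusted p = 0.731). The difference between the hairpins was -0.43 (SE 0.09) and missed the threshold (adjusted p = 0.0641); it passed without the library labelled control 1 (adjusted p = 0.0061) and in DESeq2 (adjusted p = 0.0018). The fall in shLMO2-2 had adjusted p-values of 0.0565 to 0.12 without control 3, shLMO2-1 library 2 or any 1 of the shLMO2-2 libraries. TNFRSF21 lies at chr6:47231532-47309905 on the minus strand. The other 3 tested receptors, TNFRSF1A, LTBR, the receptor of lymphotoxin, and IL1R1, the receptor of interleukin-1, had log2 fold changes between -0.20 and 0.16 and did not pass. TNFRSF1A had 78.1 to 86.3 CPM in the control, 73.6 to 91.5 in shLMO2-1 and 88.0 to 96.5 in shLMO2-2 (0.02, adjusted p = 0.911, and 0.12, adjusted p = 0.426).

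The innate receptors moved in different ways. CD14, the co-receptor that hands lipopolysaccharide to TLR4, rose with both hairpins. It had 1.33, 1.23 and 0.792 CPM in the control, 2.30, 1.93 and 3.56 in shLMO2-1, and 2.39, 2.6 and 2.78 in shLMO2-2, from counts of 23, 24 and 15, then 41, 33 and 54, then 55, 56 and 62. Every hairpin library lay above every control library. The log2 fold change was 1.21 in both, with an SE of 0.31 in shLMO2-1 (adjusted p = 0.0348) and 0.30 in shLMO2-2 (adjusted p = 0.0323), or 2.31-fold higher in each, and the 95% interval of the difference between hairpins ran from -0.61 to 0.62. Without single libraries the log2 fold change stayed between 0.92 and 1.38 in shLMO2-1. There the call was lost without control 2 or 3, shLMO2-1 library 1 or 3 or any shLMO2-2 library (adjusted p of 0.0509 to 0.132), and in shLMO2-2 without control 2 or 3 or any shLMO2-2 library (0.0549 to 0.106). CD14 is also a monocyte marker. Of the leukocyte markers, PTPRC, LYZ and FCGR3A were at or near 0 in all groups, while 3 genes of the myeloid lineage were expressed. CD68 had 0.637, 0.666 and 0.581 CPM in the control, 2.14, 1.17 and 2.04 in shLMO2-1, and 1.78, 1.30 and 1.12 in shLMO2-2 (log2 fold changes 1.49, adjusted p = 0.0272, and 1.15, adjusted p = 0.0679). ITGAM was at 4.54 to 6.04, 2.87 to 3.69 and 2.04 to 2.27 CPM (-0.63, adjusted p = 0.0618, and -1.27, adjusted p = 0.00290), and CSF1R overlapped between groups, at 3.89 to 5.62, 5.33 to 7.25 and 3.86 to 5.33 CPM. Their part in the CD14 result was not tested. The gene lies at chr5:140631728-140633701 on the minus strand.

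TLR3, the endosomal receptor of double-stranded RNA, fell in shLMO2-1. It had 3.13, 4.97 and 6.07 CPM in the control, 1.80, 2.28 and 2.64 in shLMO2-1, and 4.04, 3.99 and 2.51 in shLMO2-2. The shLMO2-1 libraries lay below every control, and the shLMO2-2 libraries overlapped both groups. The log2 fold change was -1.08 in shLMO2-1 (SE 0.29, adjusted p = 0.0429) and -0.43 in shLMO2-2 (SE 0.27, adjusted p = 0.365), while shLMO2-2 against shLMO2-1 gave 0.65 (adjusted p = 0.457). The call was lost, with adjusted p-values of 0.0552 to 0.150, without control 2 or 3, any shLMO2-1 library or shLMO2-2 library 1 or 2, and under limma-voom (0.0721). TLR3 lies at chr4:186069152-186088069 on the plus strand. TLR2, the receptor of bacterial lipoproteins, had 0.739 to 2.44 CPM over all libraries and overlapping groups, with log2 fold changes of 0.16 and -0.51; without the library labelled control 1 they were 0.46 and -0.22.

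Of the adaptor and kinases, IRAK1 rose with both hairpins. It had 702, 781 and 730 CPM in the control, 879, 922 and 921 in shLMO2-1, and 922, 892 and 922 in shLMO2-2. All 6 hairpin libraries lay above all controls, and the spread within each group was small. The log2 fold change was 0.30 in shLMO2-1 (SE 0.05, adjusted p = 0.00728) and 0.31 in shLMO2-2 (SE 0.05, adjusted p = 0.00639), about 1.23-fold and 1.24-fold. It passed at 0.05 in each of the alternatives run, the 9 without 1 library included, with adjusted p-values up to 0.0385 and 0.0338. No other member passed at an adjusted p under 0.01. IRAK1 lies at chrX:154010500-154019980 on the minus strand and contains the microRNA gene MIR718. MYD88, the adaptor that IRAK1 binds, had 46.2 to 53.6 CPM in all libraries and log2 fold changes of 0.02 (95% interval -0.15 to 0.20) and 0.05 (-0.12 to 0.23). MAP3K8, a kinase of the ERK branch, was at 0.14 and 0.39, and IRAK2, a kinase related to IRAK1, at 0.61 and 0.11; neither passed.

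**Figure D4:**
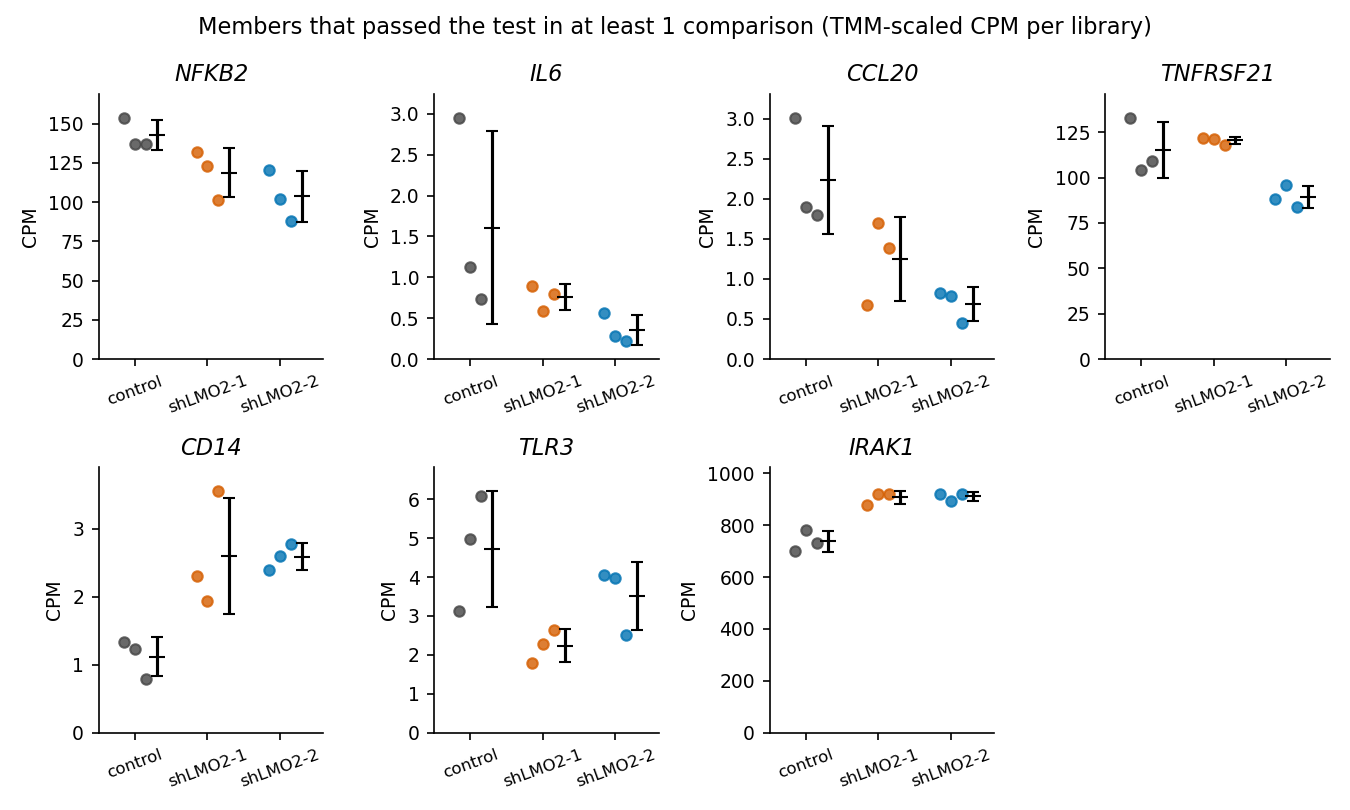
TMM-scaled CPM of the 7 members that passed in at least 1 comparison, with 1 point a library and, beside each group, its mean and SD (n = 3). The hairpin libraries of IRAK1 and CD14 all lie above the controls, those of NFKB2 and CCL20 all below, and the library labelled control 1 is the highest point for IL6, CCL20, NFKB2 and TNFRSF21.

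A further 93 genes of the pathway, listed by role with earlier results of these data known, place the members in context. Of these, 69 were tested, and in the mean of both hairpins 16 passed, 4 higher and 12 lower, or 23.2% beside 12.4% of all genes. In shLMO2-1, 8 passed (4 higher and 4 lower), or 11.6% beside 8.42% of all genes. In shLMO2-2, 12 passed (3 higher and 9 lower), or 17.4% beside 8.97%. Between the hairpins none did, where 0.768% of all genes passed. In the mean, the induced genes held 8 of the 16 calls, 3 higher and 5 lower, among 16 tested (50%, beside 12.4% of all genes). Upstream signalling held 6 of 28 (21.4%), 1 higher and 5 lower. The further inhibitors held 1 of 9 (11.1%), the deubiquitinase CYLD, which was lower. The further ligands and receptors held 1 of 16 (6.25%), the macrophage growth factor CSF1, which was lower. These last shares lay under that of all genes.

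The 8 of these genes ranked first by p against the control included both directions. C3, the central complement component, had 18.7, 20.5 and 19.4 CPM in the control, 37.1, 33.0 and 35.8 in shLMO2-1, and 36.6, 31.6 and 36.3 in shLMO2-2. All hairpin libraries lay above the controls, and the log2 fold change in the mean was 0.84 (SE 0.08, adjusted p = 0.000173). LCN2, the iron-siderophore binder lipocalin-2, rose by 0.95 (SE 0.12, adjusted p = 0.000844), from 14.4 to 15.5 CPM in the control and 25.2 to 36.1 in the hairpin libraries. Among those that fell, CD83, a surface protein of activated immune cells, had 8.34, 6.96 and 5.33 CPM in the control and 1.99 to 4 in the hairpin libraries, with a log2 fold change of -1.20 (SE 0.23, adjusted p = 0.00719). SAA1, an acute-phase apolipoprotein, was at -0.56 (adjusted p = 0.00515), from 46.6 to 63.7 CPM in the control, 43.2 to 47.2 in shLMO2-1 and 28.5 to 34.8 in shLMO2-2. SAA1 has a near-identical neighbour, SAA2, so its estimate depends on how shared reads were assigned. MAP3K7, which encodes TAK1, the kinase that activates the IkB kinases, was at -0.31 (adjusted p = 0.00856), and all hairpin libraries lay below the controls. GADD45B, a stress-induced survival gene, was at -0.31 (adjusted p = 0.0110), IRF1, an interferon-regulatory factor, at -0.30 (adjusted p = 0.0160) and SOD2, the mitochondrial superoxide dismutase, at -0.25 (adjusted p = 0.0134). For these 3 genes too, every hairpin library lay below every control. All 8 stayed past 0.05 in each of the 16 alternatives at that threshold.

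**Figure D5:**
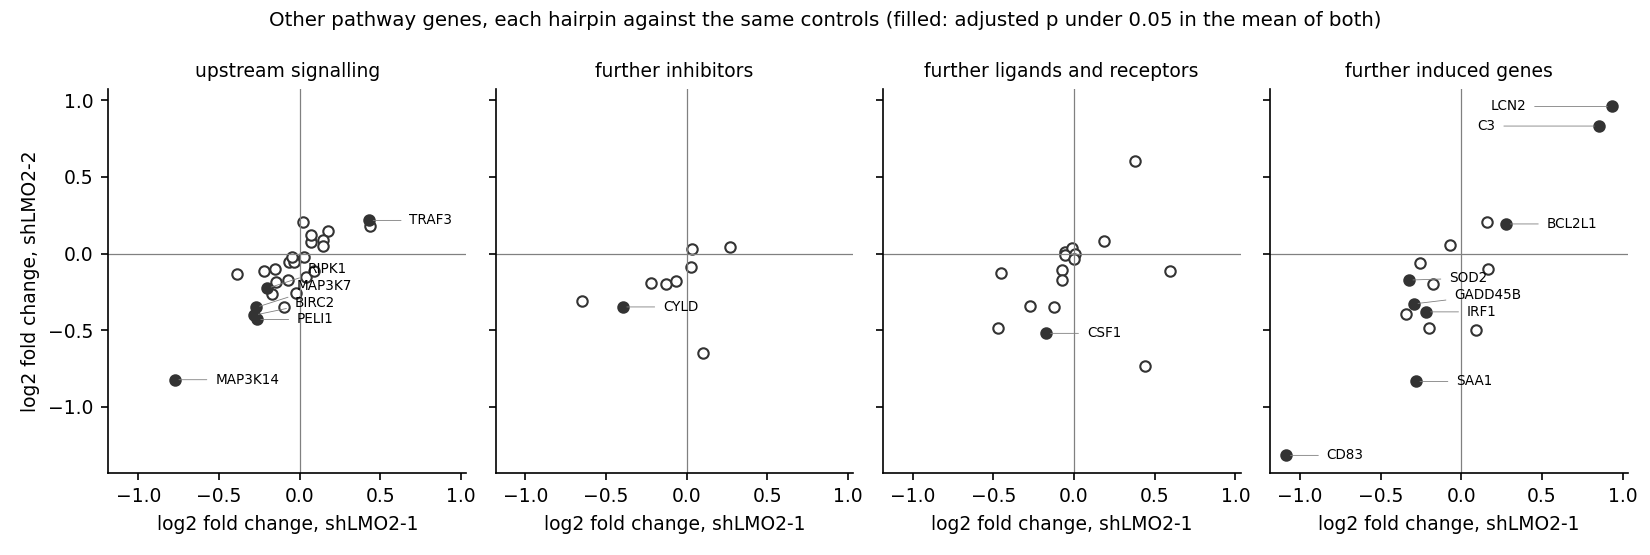
Fitted log2 fold change of the 69 other pathway genes in shLMO2-2 (vertical) against shLMO2-1 (horizontal), by role; both use the same control libraries, and filled points passed in the mean of both hairpins. LCN2 and C3 lie at the upper right and CD83 at the lower left of the induced genes.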

How the data were processed

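Poly(A) RNA-seq was compared in 9 libraries of MDA-MB-468 cells, 3 for each of 3 groups. The authors' deposited table holds estimated counts per gene, with 11.67% to 12.81% of values per library not whole. Per the submitters' processing notes, Salmon 0.12, DESeq2 1.22.2 and GRCh38.p12 were used; how transcripts were summed, whether lengths entered, and the strand setting are not given in the sources used here. Reads shared between similar or overlapping genes may be split between them. All 56809 symbols matched GENCODE 29.

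The estimated counts were rounded to whole numbers, filtered (edgeR filterByExpr, minimum count 10 and total 15, LMO2 added back) and tested in R 4.3.3 with edgeR 4.0.16 (TMM factors 0.9656 to 1.038, glmQLFit, glmQLFTest, 1 factor of 3 groups). CPM given by library or as a range over the libraries of a group is TMM-scaled; means over 9 libraries, LMO2 and marker sums use plain totals. Libraries of a group differed by more than sampling noise (chi-square per gene 4.8 to 25.61). Named genes are the members that passed in any comparison, the 5 others of highest CPM and the 5 of largest change among expressed members, and the 8 further genes of smallest p. Alternatives used other scalings and filters, limma 3.58.1, DESeq2 1.42.0, a block and each library left out. The scripts were tested on simulated data. The members and lists were chosen with earlier results of these data known. The limit for genes at 0 covers counting error only; intervals of fold changes come from the fit and include the spread between libraries.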

Additional observations from a re-analysis of the deposited data

How the results depend on the processing

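Without a filter on low counts, 7 members passed in shLMO2-1, 11 in shLMO2-2, 9 in the mean of both hairpins and 3 between the hairpins, of 42 then tested, beside 6.43%, 7.25%, 9.09% and 1.45% of all genes. With the libraries' numbers as a replicate block, these were 8, 15, 10 and 4 of 36, beside 15.1%, 16.2%, 20.6% and 1.75%. At an adjusted p under 0.01, 1 passed in each comparison with the control (2.40%, 2.65% and 4.24% of all genes). With only the groups compared in the fit, 1, 3 and 1 passed in shLMO2-1, in shLMO2-2 and between the hairpins (4.86%, 5.35% and 1.31%). DESeq2 called 10 in shLMO2-2 and 3 between the hairpins (12.5% and 2.15%). Without 1 library at a time, the counts ran from 1 to 5 in shLMO2-1, 1 to 6 in shLMO2-2, 2 to 6 in the mean and 0 to 1 between the hairpins. The shares of all genes in the same fits were 3.63% to 9.33%, 3.30% to 8.26%, 6.31% to 10.6% and 0.253% to 1.60%. The 6 in the mean, without shLMO2-2 library 1, stood beside 9.77% of all genes. The number of expressed members stayed at 31 to 32 without 1 library and was 26 with at least 1 CPM asked in every library. The cause of these differences was not tested. The fits with fewer groups or libraries also have fewer residual degrees of freedom, and the part of this was not tested either.

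The numbers 1 to 3 were not taken as pairs in the fit reported, and the labels do not say whether they mark shared batches. The correlation of deviations was -0.0635 to 0.296 in the 9 same-number pairs of libraries, 6 of them over 0.1. In the other pairs it was -0.308 to 0.182, and 8 of 9 libraries correlated best with one of their own number. The fit reported leaves this structure out. BIRC3, CXCL8, CXCL1, TNF, ICAM1 and TNFAIP2, which did not pass there, passed with the block in at least 1 comparison with the control. By the same edgeR test with the block, BIRC3 was lower with both hairpins (adjusted p = 0.00803 in shLMO2-1 and 0.00019 in shLMO2-2). CXCL8 was higher with both (0.000597 and 0.0193), and NFKB2, which had passed in shLMO2-2, also passed in shLMO2-1 (0.0223). As a description of the same structure, the library numbered 1 was the highest of all 3 groups in 12 of 36 tested members (33.3%; 13.3% of all genes tested), among them BIRC3, TNFAIP3, NFKB1, NFKB2, REL, ICAM1, CXCL1, CXCL3, CXCL8, IL6, NFKBIZ and TNFAIP2.

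Sign changes occurred only for log2 fold changes near 0 that had not passed. With total counts alone as scaling, which moved the median of all genes by -0.0376 in shLMO2-1 and -0.0485 in shLMO2-2, the value was -0.035 for ICAM1 and -0.015 for TNFRSF1A in shLMO2-1, -0.022 for TNIP1 in shLMO2-2, and -0.0081 for CD14 and -0.0033 for IRAK1 between the hairpins. With at least 10 counts in every library it was -0.0011 for CD14 between the hairpins and -0.0028 for ICAM1 in shLMO2-1, where the fit of only the groups compared gave -0.0017. Without 1 library at a time, values ran from -0.081 to 0.13 for ICAM1, -0.037 to 0.12 for TNFRSF1A, -0.45 to 0.0075 for TNF and -0.0048 to 0.17 for TNFRSF21 in shLMO2-1, from -0.094 to 0.20 for TNFAIP2 in shLMO2-2, and from -0.18 to 0.28 for CD14 and -0.015 to 0.019 for IRAK1 between the hairpins. Over all named genes and alternatives, 839 values kept their direction and side of the threshold, 85 fell short of it, 36 went past it and 29 changed sign. The 85 include values that did not change and fell short only where an adjusted p under 0.01 was asked.

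Low counts limit LMO2, IL6, CCL20, CD14 and TLR3, and 8 members were too low to be tested in the fit reported.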
